A study of Mus musculus with 24 samples.

Results

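The state of wild-type (WT) macrophages after a day in lipopolysaccharide (LPS) was compared with that of unstimulated WT macrophages. The members are the 6 libraries of the count table whose labels name the WT genotype and either LPS 24h (3 cultures) or Unstim. (3 cultures), out of 24 libraries in the series, and all 11878 genes with enough reads were tested. The cells were bone marrow-derived macrophages (BMDMs) from C57BL/6N mice aged 8 to 20 weeks, grown for 7 days in M-CSF at 20 ng/ml, a protocol that yields a nearly pure macrophage culture with few other marrow cells. LPS was given at 100 ng/ml and stayed on the LPS 24h cultures for 24 h, whereas the Unstim. cultures received none. A further WT group, LPS 3h (3 cultures), was kept without LPS for 24 h, given fresh medium and 1 h of rest, and then received LPS for 3 h. The series also holds the same groups from Irg1-/- mice, which lack the itaconate-producing enzyme encoded by Irg1 (listed as Acod1). Nothing in the labels says whether the 3 cultures of a group came from separate mice, so p-values measure the spread between cultures of a group, which may be technical. In the main fit that spread was estimated over all 24 libraries of the series, not from the 6 compared ones alone.

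LPS, the outer-membrane lipid of Gram-negative bacteria, is sensed by Toll-like receptor 4. Its MyD88 arm activates NF-kappaB and MAP kinases within minutes and drives cytokine genes, and its TRIF arm activates IRF3 and the production of interferon-beta. Secreted interferon-beta then acts back on the cells through its receptor and turns on antiviral genes. Over the following hours feedback inhibitors dampen the first wave, the cells move their metabolism toward glycolysis, itaconate and nitric oxide, and many early genes no longer respond to a new dose of LPS, a state called tolerance.

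The 6 libraries held 7361671 to 15642267 reads on genes, from a 3′-end protocol without molecular identifiers, and their defining macrophage markers were present. The summed level of 10 macrophage markers was 8223 to 8982 normalized CPM (CPM is counts per 1000000 reads on genes, scaled by the edgeR TMM factors) in Unstim. and 5562 to 9106 in LPS 24h. LPS 24h replicate 3 stood apart from the other LPS 24h cultures. Mitochondrial transcripts took 0.709% of its reads on genes, against 1.72% and 2.08% in those cultures and 2.47% to 3.04% in Unstim. Of its reads, 33.7% fell outside annotated genes, against 23.5% and 24.4% in those cultures. In Unstim. this share was 26.7% to 32.1%, nearer to that of replicate 3. Its Pearson correlation with the other two LPS 24h cultures over log2 CPM was 0.914 and 0.933, against 0.959 between the latter. Each library name joins a prefix to a barcode. The prefix is read here as the pool in which barcoded cDNAs were combined, a meaning that the labels do not state. The Unstim. libraries share their prefix with LPS 24h replicate 3, whereas LPS 24h replicates 1 and 2 carry other prefixes, so within that pool the comparison rests on replicate 3 alone. The 10 neutrophil markers, of which Ly6g was at or near 0 in every library, summed to 613 to 779 normalized CPM in Unstim. and 192 to 298 in LPS 24h, and 7 stromal markers summed to 272 to 355 and 185 to 248. Markers of dendritic, B, T and NK, erythroid and mast cells summed to at most 5.85 in any library. In these bulk libraries, fewer cells of a type and less RNA per cell cannot be told apart.

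A day of LPS left 1099 genes higher and 829 genes lower than in unstimulated cells. These are 9.25% and 6.98% of the genes tested. The test, here and for every adjusted p below, was the quasi-likelihood test of edgeR at an adjusted p of 0.05 (Benjamini-Hochberg). The changes were often large. By the fitted fold change, 492 genes were at least 4-fold higher and 352 at least 4-fold lower, and 198 and 105 passed 16-fold. Of the called genes, 78 higher ones had at most 3 reads in every Unstim. library. A further 74 lower ones had at most 3 reads in every LPS 24h library. The fitted fold change of such genes depends on the prior count of the fit, and some bounds given below are under 16-fold. The 2 groups did not overlap for 1026 of the higher genes and 806 of the lower ones, while 16.2% and 16.5% of all genes tested had the 3 LPS 24h cultures all above or all below the 3 Unstim. cultures. Without LPS 24h replicate 3 the counts were 888 and 733, of which 831 and 613 were genes called with all cultures, and within the single shared pool (1 LPS 24h culture against 3, with the spread taken from the WT and Irg1-/- Unstim. cultures of that pool) they were 919 and 683, of which 673 and 426 were. For 1 gene alone, an exact permutation test of 3 against 3 cultures cannot go below p = 0.1, two-sided.

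**Figure D1:**
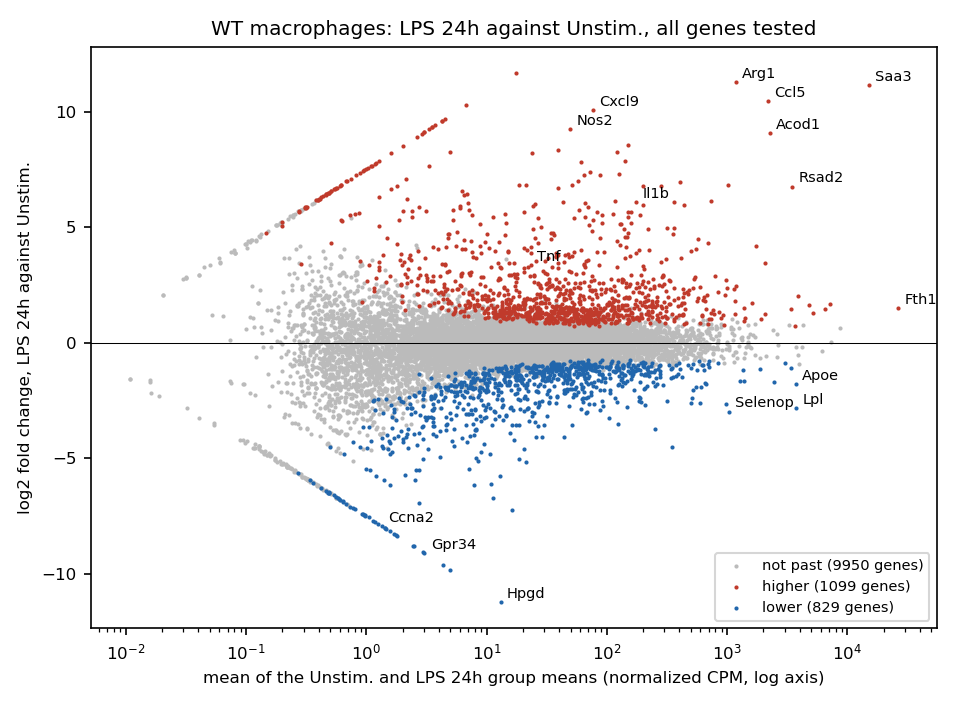
Log2 fold change of LPS 24h against Unstim. (y axis) against the average of the 2 group means in normalized CPM (x axis, log scale) for the 11878 genes tested in WT macrophages; red points are the 1099 genes called higher, blue points the 829 called lower. Saa3 and Fth1 lie at the far right, and the straight edges are genes with no reads in one of the groups.

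The highest-ranked genes by fold change joined a few very abundant transcripts with several that unstimulated cells did not show at all. Arg1 encodes arginase 1, which splits arginine to ornithine and urea, and it gave 0.837, 0.286 and 1.46 normalized CPM in Unstim. and 2641, 2251 and 2148 in LPS 24h (log2 fold change 11.30 ± 0.71, adjusted p = 2.6e-13). The 3 LPS 24h cultures lay close together and far above every Unstim. culture. Saa3, which encodes a serum amyloid A protein made by macrophages, read 17.1, 8.02 and 14.7 in Unstim. and 35061, 33707 and 21296 in LPS 24h (log2 fold change 11.14 ± 0.58, adjusted p = 1.0e-14). It had the largest gain in normalized CPM of any gene, although reads it shares with its close relatives Saa1 and Saa2 may not have been counted. In GRCm38, Arg1 (ENSMUSG00000019987.8) lies on chromosome 10, 24915221 to 24927484, - strand, and Saa3 (ENSMUSG00000040026.7) on chromosome 7, 46711998 to 46715700, - strand. Ccl5, a chemokine for T cells and monocytes, stood at 3.74, 2.48 and 2.93 in Unstim. and 6929.6, 4911 and 1153 in LPS 24h (log2 fold change 10.46 ± 0.62, adjusted p = 1.1e-13), with replicate 3 the lowest of the LPS 24h cultures. Cxcl9, an interferon-induced chemokine, had at most 3 reads in any Unstim. library and 154 ± 35.5 normalized CPM (mean ± SD, n = 3) in LPS 24h, which is at least 736-fold higher (adjusted p = 5.0e-13), counting a floor of 3 reads per library.

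Of the 15 genes with the highest fold change, 9 had no read in any Unstim. library: U90926, Slamf1, Il23r, Scimp, Heatr9, Lhx2, Pnp2, Wnk2 and Tmc2. U90926, a macrophage transcript of poorly known function, read 0 in all 3 in Unstim. and 56.6, 37.6 and 11.8 in LPS 24h, at least 169-fold higher. Slamf1, a self-ligand receptor of immune cells, read 0 in all 3 in Unstim. and 5.6, 6.88 and 13.2 in LPS 24h. Il23r, the interleukin-23 receptor, read 0 in all 3 in Unstim. and 6.94, 3.31 and 15.3 in LPS 24h. Replicate 3 was the highest of the LPS 24h cultures for both. Scimp, a transmembrane adaptor of Toll-like receptors, read 0 in all 3 in Unstim. and 8.89, 6.61 and 6.78 in LPS 24h. The purine nucleoside phosphorylase gene Pnp2 read 0 in all 3 in Unstim. and 7.18, 6.08 and 6.78 in LPS 24h. Tmc2 rested mainly on replicate 3, with 0 in all 3 in Unstim. and 0.73, 1.52 and 15 in LPS 24h (adjusted p = 0.002).

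**Figure D2:**
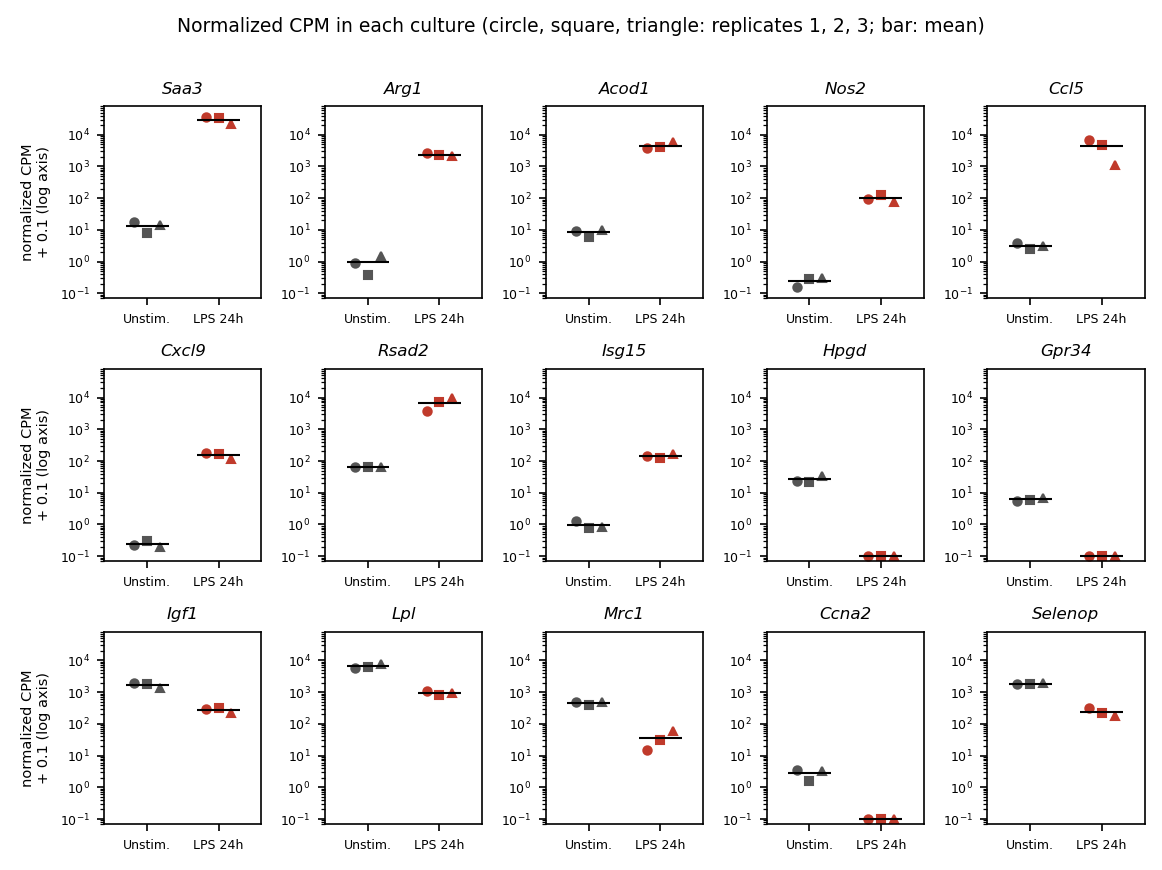
Normalized CPM plus 0.1 (y axis, log scale) of 15 genes in the 3 Unstim. and 3 LPS 24h WT cultures; circles, squares and triangles are replicates 1, 2 and 3, and the bar is the mean. Hpgd and Gpr34 drop from 21.5 to 34 and 5.54 to 6.68 normalized CPM to no reads, while Saa3 and Arg1 rise in every culture.

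Some of the largest gains in normalized CPM were those of transcripts already abundant in Unstim. Fth1, the ferritin heavy chain that stores iron, rose from 13779 ± 1443 to 39241 ± 9589.7 normalized CPM (log2 fold change 1.51 ± 0.29, adjusted p = 2.8e-04). Prdx1, a peroxidase that removes hydrogen peroxide, rose from 3412 ± 395 to 10912 ± 1475 (log2 fold change 1.68 ± 0.32, adjusted p = 2.4e-04). Cybb, the catalytic subunit of the phagocyte NADPH oxidase, rose from 3413 ± 136 to 9514 ± 1026 (log2 fold change 1.48 ± 0.28, adjusted p = 1.7e-04), and B2m, the light chain of class I molecules, from 1562 ± 32.9 to 6253 ± 943 (log2 fold change 2.0 ± 0.33, adjusted p = 2.5e-05). Rnf149, a membrane ubiquitin ligase, went from 2333 ± 194 to 7261 ± 2841 (log2 fold change 1.64 ± 0.29, adjusted p = 9.0e-05), with the highest value in replicate 3. The actin-binding thymosin gene Tmsb4x rose from 2991 ± 349 to 7315 ± 1544 (log2 fold change 1.29 ± 0.33, adjusted p = 0.0055), but within the single pool its adjusted p was 0.12. Fth1 and Tmsb4x have many processed copies in the genome, which makes their read numbers uncertain.

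Antiviral genes had the highest share of called genes among the 26 lists. Of 45 tested interferon targets, 44 were higher (97.8%, against 9.25% of all genes tested) and none was lower. There was no overlap between the cultures for any of the 44, against 16.2% of all genes tested without overlap in that direction. Their median log2 fold change was 3.89, against 0.00 over all genes tested. The exception was Irf9, a subunit of the interferon-activated complex, with 58, 39.9 and 60.3 in Unstim. and 85.9, 101 and 87.3 in LPS 24h (log2 fold change 0.79 ± 0.46, adjusted p = 0.28). Rsad2, encoding the antiviral enzyme viperin, rose from 63.7 ± 0.822 to 6889 ± 2946 normalized CPM (log2 fold change 6.76 ± 0.43, adjusted p = 3.6e-13). Isg15, a ubiquitin-like modifier, read 1.16, 0.668 and 0.732 in Unstim. and 141, 128 and 166 in LPS 24h (log2 fold change 7.38 ± 0.40, adjusted p = 2.8e-14). Ifit2, which binds viral RNA, read 20.1, 22 and 10.5 in Unstim. and 833, 2461 and 2738 in LPS 24h (log2 fold change 6.85 ± 0.56, adjusted p = 4.6e-11). Ifit1 read 25.6, 15.4 and 21.1 in Unstim. and 1120.5, 2220.2 and 1043 in LPS 24h (log2 fold change 6.14 ± 0.48, adjusted p = 2.5e-11). Transcription factors that carry the interferon signal were among the members: Stat2 had a log2 fold change of 4.31 ± 0.43 and Irf7 of 6.09 ± 0.46. Mx1, a dynamin-like GTPase, had 5.95 ± 0.41, and Ifi44 6.78 ± 0.41. Bst2 encodes tetherin, which holds budding virions at the membrane, and it read 8.12, 7.35 and 6.44 in Unstim. and 169.8, 149 and 181 in LPS 24h (log2 fold change 4.51 ± 0.38, adjusted p = 9.9e-11). The transcript of interferon-beta itself (Ifnb1) was barely detected, with 0 in all 3 in Unstim. and 0.243, 0.536 and 2.1 in LPS 24h. Its adjusted p was 0.006 with all cultures, and the call was lost without LPS 24h replicate 3 (log2 fold change 5.19, adjusted p = 0.069).

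The promoters of the antiviral genes are shown because the group moved together. RefSeq windows of GRCm38.p6, which run from 250 bases before a gene's start to 50 after it, were matched to 9360 of the 11878 genes. On either strand they were searched for GAAANNGAA, the core of the interferon-stimulated response element. Of 34 antiviral genes with a window, 21 held it (61.8%), as did 8 of 8 guanylate-binding and immunity-related GTPase genes, 17.0% of the 867 genes called higher, 9.12% of the 636 called lower, 9.05% of all 9360 and 8.56% of all 32851 windows in the table. The kappaB letters GGGANTTTC occurred in 2.88% of higher genes, 1.10% of lower genes and 1.20% of all, and in 4 of 13 chemokine genes but 0 of 34 antiviral genes. The GAS letters TTCNNNGAA were in 10.8%, 8.65% and 8.21%, and the E2F letters GGCGGGAA in 3.81%, 2.20% and 4.74%. Matches of different motifs may overlap, each gene was counted once per motif, and a match of letters does not show that a factor binds there. Windows of the 4 antiviral genes with the highest fold change that held the first motif follow, 5′ to 3′ on the gene's strand, with each match in capitals.
Ifit1bl1 (chr19:34601919-34602218, minus strand): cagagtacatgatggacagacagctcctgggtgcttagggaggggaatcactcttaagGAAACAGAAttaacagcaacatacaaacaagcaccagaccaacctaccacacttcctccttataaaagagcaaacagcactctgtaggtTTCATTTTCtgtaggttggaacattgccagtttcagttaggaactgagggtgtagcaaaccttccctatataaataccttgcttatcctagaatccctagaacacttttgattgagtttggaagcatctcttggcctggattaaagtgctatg
Isg15 (chr4:156200769-156201068, minus strand): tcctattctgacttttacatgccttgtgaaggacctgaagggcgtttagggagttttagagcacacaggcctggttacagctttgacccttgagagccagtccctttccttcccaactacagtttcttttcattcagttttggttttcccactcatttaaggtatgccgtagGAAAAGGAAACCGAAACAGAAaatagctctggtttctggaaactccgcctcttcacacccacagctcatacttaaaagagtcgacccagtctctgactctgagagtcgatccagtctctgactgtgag
Ifi205 (chr1:174031706-174032005, minus strand): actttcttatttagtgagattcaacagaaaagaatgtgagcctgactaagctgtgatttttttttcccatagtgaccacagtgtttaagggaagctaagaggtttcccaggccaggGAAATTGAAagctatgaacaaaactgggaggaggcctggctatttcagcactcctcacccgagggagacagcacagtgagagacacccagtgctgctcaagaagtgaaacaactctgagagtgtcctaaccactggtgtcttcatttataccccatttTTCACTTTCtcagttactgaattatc
Ifi44 (chr3:151749861-151750160, minus strand): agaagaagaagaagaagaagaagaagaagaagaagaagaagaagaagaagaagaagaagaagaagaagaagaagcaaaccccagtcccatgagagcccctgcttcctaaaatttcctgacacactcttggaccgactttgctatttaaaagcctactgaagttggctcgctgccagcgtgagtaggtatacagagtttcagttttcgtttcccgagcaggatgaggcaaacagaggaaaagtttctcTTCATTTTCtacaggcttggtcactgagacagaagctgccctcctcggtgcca
The letters stand on either strand. Isg15 carries 3 overlapping matches that begin 78, 72 and 66 bases before the start, and Ifit1bl1 carries 2, at 192 and 103 bases before it. Of these genes, Ifit1bl1 read 0, 0.286 and 0.195 in Unstim. and 44.1, 61.6 and 37.7 in LPS 24h (log2 fold change 8.20 ± 0.75, adjusted p = 6.1e-10). Ifi205, a nucleic acid sensor of a family of near-identical genes, read 1.03, 0.286 and 1.17 in Unstim. and 68.5, 78.3 and 196 in LPS 24h (log2 fold change 7.01 ± 0.54, adjusted p = 1.5e-11).

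GTPases of intracellular defense and genes of class I antigen presentation were higher, while class II genes were not called. Of 14 guanylate-binding proteins and immunity-related GTPases, which attack the vacuoles of intracellular microbes, 11 were higher and none was lower. The higher share was 78.6%, against 9.25% of all genes tested. The list's median log2 fold change was 4.11, or 3.83 with the 1 gene at or under the floor in Unstim. set at its bound. Iigp1 read 2.13, 2.48 and 2.78 in Unstim. and 78.6, 148 and 83.4 in LPS 24h (log2 fold change 5.38 ± 0.45, adjusted p = 8.5e-11). Gbp2 read 9.47, 5.82 and 5.95 in Unstim. and 224, 268 and 267 in LPS 24h (log2 fold change 5.16 ± 0.37, adjusted p = 4.1e-12). Gbp3 read 13.5, 8.69 and 10.2 in Unstim. and 150.2, 272 and 441 in LPS 24h (log2 fold change 4.73 ± 0.52, adjusted p = 2.3e-08). Members of this family are similar in sequence, and reads that aligned to several positions entered no gene's count, so that levels of near-identical members are uncertain. In the class I pathway 16 of 22 genes were higher (72.7%, against 9.25% of all genes tested) and none was lower (median 1.96). H2-Q7, a non-classical class I heavy chain, read 7.21, 5.54 and 8.19 in Unstim. and 375, 182 and 188 in LPS 24h (log2 fold change 5.14 ± 0.40, adjusted p = 1.9e-11), and the classical H2-K1 rose from 366 ± 97.8 to 1983 ± 353 (log2 fold change 2.44 ± 0.32, adjusted p = 6.1e-07). Tap1, which pumps peptides into the endoplasmic reticulum, had a log2 fold change of 3.58 ± 0.41, and the immunoproteasome subunit Psmb9 of 2.36 ± 0.33. None of the 7 tested class II genes was called. The invariant chain Cd74 read 25.5, 23.1 and 28.4 in Unstim. and 22.5, 18.1 and 7.45 in LPS 24h (log2 fold change -0.68 ± 0.36, adjusted p = 0.22), while within the single pool it was called lower (log2 fold change -1.79). Within the single pool 3 members of the class II and co-stimulation list were lower, and with pool as a term 4 were. The 6 members of that list that were higher (37.5%, against 9.25% of all genes tested) are surface ligands and receptors. Cd274 (PD-L1) had a log2 fold change of 4.60 ± 0.46, Cd40 of 4.0 ± 0.42 and Slamf7 of 2.32 ± 0.34. The others were Cd86, Pdcd1lg2 and Slamf1. The call of Cd86 was lost within the single pool.

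Cytokine transcripts were still raised at 24 h in most of the list. Of 28 tested, 16 were higher (57.1%, against 9.25% of all genes tested) and 1 was lower (3.57%, against 6.98%). The median log2 fold change was 2.10, or 1.89 with genes that had at most 3 reads per library in 1 group set at their bound. Il1b, the precursor of interleukin-1 beta, read 4.38, 5.06 and 5.66 in Unstim. and 524, 280.4 and 234 in LPS 24h (log2 fold change 6.10 ± 0.38, adjusted p = 2.0e-13). Il1a, which acts at the same receptor, read 3.09, 3.91 and 4.1 in Unstim. and 160.1, 172 and 115 in LPS 24h (log2 fold change 5.33 ± 0.44, adjusted p = 8.5e-11). Il1rn, which encodes the antagonist of both at their receptor, read 11.7, 11.4 and 17.9 in Unstim. and 959, 1036 and 599.8 in LPS 24h (log2 fold change 5.98 ± 0.40, adjusted p = 1.0e-12). Tnf, the gene of tumor necrosis factor, read 4.06, 3.06 and 5.07 in Unstim. and 50.5, 41.1 and 35.1 in LPS 24h (log2 fold change 3.36 ± 0.38, adjusted p = 4.5e-08). Il12b, the p40 chain of interleukins 12 and 23, read 0.644, 1.24 and 0.975 in Unstim. and 10.6, 19.7 and 12.6 in LPS 24h (log2 fold change 3.92 ± 0.50, adjusted p = 3.7e-07). Il6, which drives fever and the acute-phase response, read 0.0644, 0.191 and 0.439 in Unstim. and 2.92, 4.38 and 3.73 in LPS 24h (log2 fold change 3.83 ± 0.71, adjusted p = 1.4e-04). For these 6 genes every LPS 24h culture was above every Unstim. culture. Il10, an anti-inflammatory cytokine, read 0.129, 1.24 and 1.32 in Unstim. and 3.29, 1.34 and 4.49 in LPS 24h (log2 fold change 1.75 ± 0.55, adjusted p = 0.026), and its call was lost without LPS 24h replicate 1 or 3 or Unstim. replicate 1 (log2 fold change 1.21 to 1.70, adjusted p = 0.058 to 0.19) and in the fit of the 2 compared groups alone (adjusted p = 0.22). The gene that was lower was Csf1, the growth factor M-CSF, with 115, 65.8 and 77.4 in Unstim. and 51.9, 38.4 and 23.6 in LPS 24h (log2 fold change -1.18 ± 0.36, adjusted p = 0.019), a call lost without LPS 24h replicate 3 or Unstim. replicate 1 (log2 fold change -0.99 to -0.94, adjusted p = 0.091 to 0.12).

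Chemokines were higher in 15 of 21 cases (71.4%, against 9.25% of all genes tested) and lower in 2 (9.52%, against 6.98%). Their median log2 fold change was 4.40, or 4.12 at the bound. Besides Ccl5 and Cxcl9, the monocyte attractants Ccl12, Ccl2 and Ccl7 were higher in every LPS 24h culture. Ccl12 read 0.0644, 0.0955 and 0.439 in Unstim. and 76.6, 104 and 52.7 in LPS 24h (log2 fold change 8.35 ± 0.51, adjusted p = 1.6e-13). Ccl2 read 2.32, 6.01 and 2.58 in Unstim. and 298, 518 and 371 in LPS 24h (log2 fold change 6.79 ± 0.53, adjusted p = 2.5e-11). Ccl7 read 3.41, 1.91 and 3.41 in Unstim. and 135, 153 and 94.2 in LPS 24h (log2 fold change 5.43 ± 0.36, adjusted p = 6.4e-13). Neutrophil attractants were raised as well. Cxcl2 read 19.9, 33.5 and 24.1 in Unstim. and 613, 613 and 823 in LPS 24h (log2 fold change 4.73 ± 0.35, adjusted p = 5.9e-12). Cxcl3 read 0.193, 0.477 and 0.439 in Unstim. and 31, 46.7 and 49.4 in LPS 24h (log2 fold change 6.82 ± 0.70, adjusted p = 7.5e-09).

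Further chemokines with other targets rose as well. Cxcl10, which attracts T cells, read 4.96, 2.86 and 9.56 in Unstim. and 288, 392 and 209 in LPS 24h (log2 fold change 5.65 ± 0.42, adjusted p = 9.1e-12). Ccl8 rose from 2.28 ± 1.14 to 38.8 ± 12.9 (log2 fold change 4.12 ± 0.52, adjusted p = 3.4e-07) and Ccl4 from 21.7 ± 4.24 to 121 ± 6.69 (log2 fold change 2.48 ± 0.33, adjusted p = 8.6e-07). Ccl6, a chemokine of resting macrophages, was lower, with 329, 318 and 373 in Unstim. and 125, 95.7 and 54.4 in LPS 24h (log2 fold change -1.89 ± 0.31, adjusted p = 2.6e-05). The other lower gene, Cx3cl1, read 0.515, 1.53 and 0 in Unstim. and 0 in all 3 in LPS 24h, and its call was lost when any of 5 of the 6 cultures was left out (adjusted p = 0.055 to 0.17) and within the single pool (adjusted p = 0.35).

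Genes of proteins that restrain the Toll-like receptor response were mostly higher. Of 27 feedback inhibitors 20 were higher (74.1%, against 9.25% of all genes tested) and 1 was lower (3.70%, against 6.98%). The median log2 fold change was 1.61. Socs3, which blocks cytokine receptor kinases, read 1.61, 2.96 and 1.9 in Unstim. and 119, 156 and 72.5 in LPS 24h (log2 fold change 5.76 ± 0.46, adjusted p = 4.0e-11). Its relative Socs1 read 0.387, 0 and 0.439 in Unstim. and 18.1, 17.7 and 8.69 in LPS 24h (log2 fold change 5.53 ± 0.50, adjusted p = 3.9e-10). Irak3, an inactive kinase that holds back MyD88 signalling, read 54, 29.4 and 25.7 in Unstim. and 211, 251 and 249 in LPS 24h (log2 fold change 2.71 ± 0.41, adjusted p = 7.7e-06). The MAP kinase phosphatase Dusp1 read 27.8, 35 and 46.9 in Unstim. and 232, 258 and 222 in LPS 24h (log2 fold change 2.70 ± 0.33, adjusted p = 2.1e-07). Nfkbia, the inhibitor that retains NF-kappaB in the cytoplasm, rose from 325 ± 13.7 to 1659 ± 388 (log2 fold change 2.35 ± 0.28, adjusted p = 1.2e-07). The deubiquitinase gene Tnfaip3 read 5.02, 18.7 and 13.8 in Unstim. and 37.5, 39.9 and 107 in LPS 24h (log2 fold change 2.30 ± 0.42, adjusted p = 1.2e-04), highest in replicate 3. Rnf144b, a ubiquitin ligase of the list, was the lower one, with 8.44, 10.9 and 11.5 in Unstim. and 0.974, 0.357 and 0.0955 in LPS 24h (log2 fold change -4.46 ± 0.93, adjusted p = 6.6e-04).

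Some transcription factors of the response were higher at 24 h. Of 34 tested members of the NF-kappaB, AP-1, STAT and IRF families 8 (23.5%, against 9.25% of all genes tested) were higher and 2 were lower (median 0.47). Cebpb, a driver of late inflammatory genes, read 174, 163 and 226 in Unstim. and 788, 1585 and 1795 in LPS 24h (log2 fold change 2.89 ± 0.42, adjusted p = 4.5e-06). Irf1, an interferon-regulated factor, read 64.8, 64.3 and 56.7 in Unstim. and 116, 173 and 265 in LPS 24h (log2 fold change 1.58 ± 0.29, adjusted p = 1.3e-04). The NF-kappaB gene Nfkb1 read 92.9, 89.1 and 87.3 in Unstim. and 101, 108 and 139 in LPS 24h (log2 fold change 0.37 ± 0.26, adjusted p = 0.39). Egr2, a factor tied to alternative activation, was lower, with 11.9, 17.9 and 12.6 in Unstim. and 1.58, 1.88 and 0.191 in LPS 24h (log2 fold change -3.53 ± 0.75, adjusted p = 8.9e-04), as was Egr1 (log2 fold change -1.37 ± 0.43, adjusted p = 0.027), a call lost without LPS 24h replicate 1 or 2 or Unstim. replicate 1 (log2 fold change -1.47 to -1.04, adjusted p = 0.056 to 0.16), within the single pool (adjusted p = 0.31) and with pool as a term (adjusted p = 0.095).

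Some receptors and adaptors that sense microbes were higher. Of 27, 7 (25.9%, against 9.25% of all genes tested) were higher and 1 was lower, and the median log2 fold change was 0.09. Tlr1, a partner of Tlr2 for lipopeptides, read 8.25, 6.97 and 9.51 in Unstim. and 70.1, 45.7 and 25.8 in LPS 24h (log2 fold change 2.51 ± 0.38, adjusted p = 9.0e-06). Tlr3, a sensor of double-stranded RNA, read 3.22, 8.59 and 5.27 in Unstim. and 16.7, 17.8 and 39.1 in LPS 24h (log2 fold change 2.12 ± 0.37, adjusted p = 8.0e-05). The LPS receptor Tlr4 itself read 48.5, 45 and 37.8 in Unstim. and 32.1, 29 and 30.3 in LPS 24h (log2 fold change -0.52 ± 0.37, adjusted p = 0.39). Tlr7, a sensor of single-stranded RNA, was the lower one, with 129, 104 and 80.9 in Unstim. and 60.7, 54.5 and 48.9 in LPS 24h (log2 fold change -0.93 ± 0.29, adjusted p = 0.024), a call lost without LPS 24h replicate 2 or 3 or Unstim. replicate 1 or 2 (log2 fold change -0.96 to -0.78, adjusted p = 0.051 to 0.12). The Tlr7 call was also lost within the single pool (adjusted p = 0.15). Within it 3 of the 27 were higher and 0 lower, and without 1 culture the higher ones ranged from 4 (without Unstim. replicate 1 or 3) to 6.

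Secreted acute-phase and antimicrobial proteins were higher in 7 of 17 cases (41.2%, against 9.25% of all genes tested) and lower in 1 (5.88%, against 6.98%). Besides Saa3, Slpi, a protease inhibitor, read 1.87, 1.05 and 2.68 in Unstim. and 222, 114 and 50.4 in LPS 24h (log2 fold change 6.06 ± 0.65, adjusted p = 1.5e-08). Complement C3 read 10.4, 4.39 and 10.5 in Unstim. and 258, 324 and 347 in LPS 24h (log2 fold change 5.18 ± 0.35, adjusted p = 1.1e-12). Haptoglobin (Hp), which binds free hemoglobin, read 1.87, 2.96 and 0.488 in Unstim. and 71.9, 71.5 and 20.0 in LPS 24h (log2 fold change 5.0 ± 0.57, adjusted p = 6.1e-08). Lcn2, a siderophore-binding protein, read 20.1, 17.5 and 27.9 in Unstim. and 552, 342 and 155 in LPS 24h (log2 fold change 4.0 ± 0.37, adjusted p = 6.4e-10). Replicate 3 was the lowest LPS 24h culture for Slpi, Hp and Lcn2. The lower gene was Camp, a granule peptide of neutrophils, with 9.53, 12 and 13.9 in Unstim. and 1.46, 0.626 and 0 in LPS 24h (log2 fold change -4.13 ± 0.64, adjusted p = 1.0e-05). Camp is itself a member of the neutrophil marker list, of which 4 of 9 tested members were lower and none higher. The groups overlapped for S100a8 and Mmp8, and at low levels for Elane and Ly6g. S100a8 read 200.4, 239 and 150.9 in Unstim. and 159.5, 124.4 and 33.05 in LPS 24h, and Mmp8 read 95.73, 90.41 and 97.78 and then 67.32, 52.82 and 116.5. S100a9 read 314, 369 and 270.4 in Unstim. and 63.2, 65.4 and 37.4 in LPS 24h. Ngp, another granule protein, read 39, 46.9 and 58.4 in Unstim. and 5.23, 2.32 and 1.05 in LPS 24h. The part of neutrophil precursors in the fall of Camp was not tested.

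Receptors for bacteria and debris changed in both directions. Of 27 scavenger, Fc and C-type lectin receptors 12 were higher and 6 were lower (median 0.97). The shares were 44.4% and 22.2%, against 9.25% and 6.98% of all genes tested. Marco, a scavenger receptor that binds bacteria, read 0.644, 0 and 0.78 in Unstim. and 168, 116 and 79.6 in LPS 24h (log2 fold change 7.82 ± 0.63, adjusted p = 4.0e-11). Fpr1, a receptor for formylated bacterial peptides, read 1.67, 0.764 and 0.146 in Unstim. and 135, 117 and 135 in LPS 24h (log2 fold change 7.25 ± 0.61, adjusted p = 1.1e-10). Its relative Fpr2 read 6.57, 9.93 and 2.97 in Unstim. and 756, 724 and 918 in LPS 24h (log2 fold change 6.96 ± 0.44, adjusted p = 2.5e-13). Clec4e (Mincle), a receptor for mycobacterial glycolipid, read 5.93, 7.35 and 5.17 in Unstim. and 467, 317 and 152 in LPS 24h (log2 fold change 5.67 ± 0.40, adjusted p = 2.4e-12). Fcgr1, the high-affinity IgG receptor, read 35.7, 61.8 and 39 in Unstim. and 597, 702 and 244 in LPS 24h (log2 fold change 3.50 ± 0.36, adjusted p = 9.4e-09). In the other direction, Clec7a (Dectin-1), the receptor for fungal beta-glucan, read 541, 676 and 411 in Unstim. and 42.4, 41.1 and 198 in LPS 24h (log2 fold change -2.53 ± 0.54, adjusted p = 8.5e-04), with replicate 3 well above the other LPS 24h cultures and an adjusted p of 0.11 within the single pool. Cd300a, an inhibitory lipid receptor, read 116, 117 and 131 in Unstim. and 13.1, 22.2 and 9.36 in LPS 24h (log2 fold change -3.02 ± 0.42, adjusted p = 2.2e-06).

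Genes of itaconate, nitric oxide and arginine metabolism were raised in 10 of 18 cases (55.6%, against 9.25% of all genes tested), with none lower. Acod1 (ENSMUSG00000022126.6, GRCm38 chromosome 14, 103046977 to 103056573, + strand) encodes the enzyme that makes itaconate from cis-aconitate, and it read 9.41, 5.82 and 10.0 in Unstim. and 3794, 4015 and 5799 in LPS 24h (log2 fold change 9.06 ± 0.64, adjusted p = 2.3e-12). Nos2 (inducible nitric oxide synthase) read 0.0644, 0.191 and 0.195 in Unstim. and 95.4, 127 and 74 in LPS 24h (log2 fold change 9.26 ± 0.75, adjusted p = 4.5e-11). Slc7a2, an arginine importer, read 3.41, 2.67 and 3.56 in Unstim. and 129, 144 and 215 in LPS 24h (log2 fold change 5.65 ± 0.62, adjusted p = 3.0e-08). Arg1 and Nos2, which compete for arginine, were thus both far above Unstim. in every culture. Sod2, the mitochondrial superoxide dismutase, read 70.5, 47.8 and 63.2 in Unstim. and 1289.7, 1019.7 and 515 in LPS 24h (log2 fold change 3.96 ± 0.37, adjusted p = 7.3e-10).

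Most glycolytic genes were higher, and few genes of the TCA cycle or of oxidative phosphorylation were called. Of 23 glycolytic genes 15 were higher (65.2%, against 9.25% of all genes tested) and none was lower (median log2 fold change 1.48). Pfkfb3, which makes the activator of phosphofructokinase, read 6.25, 12.7 and 14.3 in Unstim. and 263, 193 and 241 in LPS 24h (log2 fold change 4.39 ± 0.36, adjusted p = 4.9e-11). The lactate exporter Slc16a3 read 9.08, 14.3 and 13.7 in Unstim. and 153, 113 and 92.2 in LPS 24h (log2 fold change 3.27 ± 0.33, adjusted p = 3.7e-09). Hk2, the first enzyme of the pathway, read 38.3, 29.4 and 35.8 in Unstim. and 237, 201 and 267 in LPS 24h (log2 fold change 2.77 ± 0.29, adjusted p = 8.7e-09). Ldha, which makes lactate, read 70.0, 67.6 and 108 in Unstim. and 720.4, 445 and 226 in LPS 24h (log2 fold change 2.50 ± 0.37, adjusted p = 4.6e-06), lowest in replicate 3. Hif1a, a factor that induces glycolytic genes, read 94.6, 75.9 and 94.2 in Unstim. and 362, 385 and 719 in LPS 24h (log2 fold change 2.47 ± 0.34, adjusted p = 1.3e-06). Within the single pool 9 of the 23 were higher and 1 lower. Of 24 genes of the TCA cycle list none was higher and 4 were lower (16.67%, against 6.98% of all genes tested, median 0.00). The 4 include Idh1, whose enzyme is cytosolic and lies outside the mitochondrial cycle. Idh3a, Idh3b and Idh3g were not called (adjusted p = 0.88, 0.87 and 0.25). Idh1, the cytosolic isocitrate dehydrogenase, read 160.3, 211 and 225 in Unstim. and 79.9, 73 and 52.3 in LPS 24h (log2 fold change -1.54 ± 0.32, adjusted p = 6.1e-04). For Idh2, Suclg2 and Fh1 the log2 fold change was -1.08, -0.96 and -1.09, and each call was lost when any of 4 or 5 of the 6 cultures was left out (adjusted p up to 0.15), so that without 1 culture 1 to 3 genes of the list were called lower (1 without LPS 24h replicate 3 or Unstim. replicate 2). Of 69 nuclear oxidative phosphorylation genes 4 were called (5.80%, against 9.25% of all genes tested called higher), all higher: Ndufc2, Cox5a, Cycs and Uqcrq. Cox5a read 79.6, 85.4 and 107 in Unstim. and 233, 218 and 236 in LPS 24h (log2 fold change 1.34 ± 0.31, adjusted p = 0.0021). Ndufc2 read 105, 83.9 and 73.9 in Unstim. and 141, 441 and 947 in LPS 24h (log2 fold change 2.54 ± 0.59, adjusted p = 0.0021), highest in replicate 3, and lost its call without LPS 24h replicate 3 (log2 fold change 1.69, adjusted p = 0.05). Cycs and Uqcrq lost their calls without 1 of several cultures, within the single pool (adjusted p = 0.27 and 0.70) and with pool as a term. Within the single pool 6 members of this list were lower and 2 higher. Without 1 culture 2 to 4 were higher (2 without LPS 24h replicate 1 or Unstim. replicate 1 or 2).

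Some redox and iron genes were higher. Of 26 genes of the NRF2 target list 8 (30.8%, against 9.25% of all genes tested) were higher and 1 (3.85%, against 6.98%) was lower. The list also counts Nfe2l2, the gene of NRF2 itself, and its regulator Keap1, and its median log2 fold change was 0.26. Nqo1, Gclc, Gclm, Txnrd1 and Srxn1 were not called (log2 fold change 0.10, -0.08, -0.22, -0.30 and 0.25). Slc7a11, the cystine importer, read 11.8, 9.17 and 9.07 in Unstim. and 134, 122 and 205 in LPS 24h (log2 fold change 3.94 ± 0.35, adjusted p = 2.8e-10). Hmox1 (heme oxygenase 1) read 39.6, 29.3 and 65.3 in Unstim. and 345, 289 and 384 in LPS 24h (log2 fold change 2.92 ± 0.38, adjusted p = 7.4e-07). Catalase (Cat) was lower, with 288, 293 and 369 in Unstim. and 184, 131 and 59.4 in LPS 24h (log2 fold change -1.34 ± 0.37, adjusted p = 0.011), a call lost without LPS 24h replicate 3 (log2 fold change -1.07, adjusted p = 0.06). Of 17 iron and metal genes 6 (35.3%) were higher and 1 was lower. Ceruloplasmin (Cp), a ferroxidase, read 4.25, 9.74 and 6.39 in Unstim. and 269, 281 and 320.3 in LPS 24h (log2 fold change 5.42 ± 0.35, adjusted p = 3.8e-13). The iron exporter ferroportin (Slc40a1) read 392, 403 and 284 in Unstim. and 45.3, 57 and 62.8 in LPS 24h (log2 fold change -2.71 ± 0.29, adjusted p = 1.7e-08). Ferritin heavy chain and ceruloplasmin were thus above Unstim. in all cultures while the exporter was below it in all. Mt2, a metal-binding metallothionein, read 10.4, 11.2 and 15.5 in Unstim. and 62.1, 39.7 and 10.9 in LPS 24h (log2 fold change 1.60 ± 0.43, adjusted p = 0.0078), with replicate 3 inside the Unstim. range, and its log2 fold change was -0.19 within the single pool. The call was also lost without LPS 24h replicate 1 or Unstim. replicate 1 (log2 fold change 1.01 to 1.45, adjusted p = 0.0501 to 0.11), and with pool as a term (adjusted p = 0.40).

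Inflammasome genes, which the study follows, were in part higher at this time. Of 19, 4 (21.1%, against 9.25% of all genes tested) were higher and 1 was lower (median log2 fold change 0.52). Nlrp3, the sensor, read 31.5, 18.6 and 24.9 in Unstim. and 44.8, 29 and 47.6 in LPS 24h (log2 fold change 0.69 ± 0.41, adjusted p = 0.29), and passed the test with pool as a term (log2 fold change 1.41). Its adaptor Pycard read 33.4, 34.6 and 41.7 in Unstim. and 53.2, 44.2 and 27.1 in LPS 24h (log2 fold change 0.18 ± 0.27, adjusted p = 0.74). Casp1, the protease that cleaves pro-interleukin-1 beta, read 75.2, 67.1 and 65 in Unstim. and 172, 255 and 218 in LPS 24h (log2 fold change 1.64 ± 0.38, adjusted p = 0.0021). Casp4, which encodes the intracellular LPS receptor caspase-11, read 24.7, 18.1 and 11.9 in Unstim. and 111, 109 and 70.9 in LPS 24h (log2 fold change 2.40 ± 0.30, adjusted p = 3.0e-07). Mefv (pyrin) read 0.837, 0.859 and 0.0975 in Unstim. and 13.4, 9.47 and 8.41 in LPS 24h (log2 fold change 4.20 ± 0.57, adjusted p = 1.4e-06). Gsdmd, the pore-forming gasdermin D, read 18.6, 20.8 and 15.7 in Unstim. and 42.2, 36.8 and 21.1 in LPS 24h (log2 fold change 0.86 ± 0.30, adjusted p = 0.045), with replicate 3 close to the Unstim. range, and its call was lost without LPS 24h replicate 1 or 2 or Unstim. replicate 1, 2 or 3 (log2 fold change 0.64 to 0.94, adjusted p = 0.069 to 0.19), and within the single pool (log2 fold change 0.20, adjusted p = 0.84). Nlrp1b was lower (log2 fold change -1.49 ± 0.51, adjusted p = 0.044), a call lost without LPS 24h replicate 1 or 2 or Unstim. replicate 1 or 2 (log2 fold change -1.67 to -0.90, adjusted p = 0.051 to 0.34) and within the single pool (adjusted p = 0.29).

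**Figure D3:**
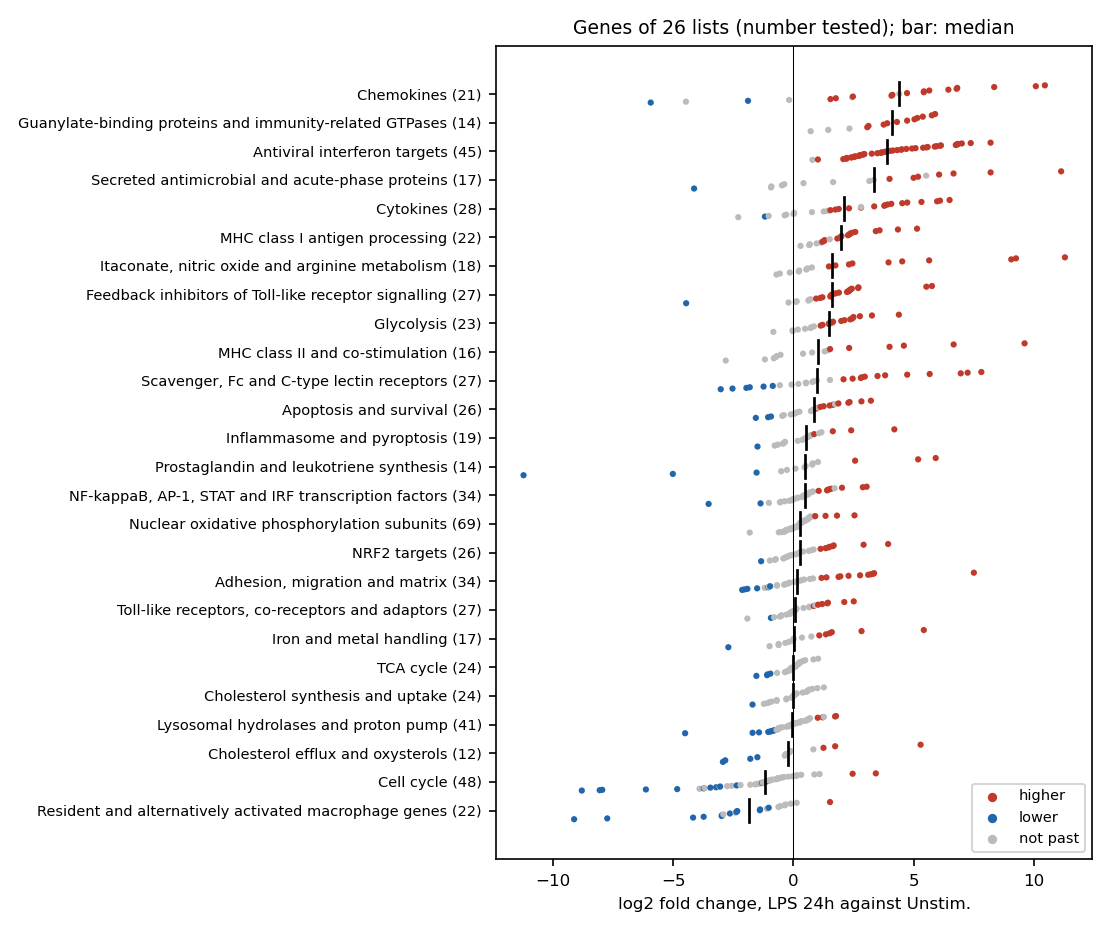
Log2 fold change of LPS 24h against Unstim. (x axis) for each tested gene of 26 lists (rows, with the number tested), red where called higher, blue where called lower and grey otherwise; the bar is the list's median. Chemokine, GTPase and antiviral lists have medians of 4.40, 4.11 and 3.89, and the resident macrophage list has the lowest, -1.87.

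Lipid genes changed in both directions. Prostaglandin genes split into 3 higher and 3 lower of 14 (21.43% each, against 9.25% and 6.98% of all genes tested). Ptgs2 (COX-2), the inducible cyclooxygenase, read 6.64, 5.73 and 2.19 in Unstim. and 81.2, 159.6 and 286 in LPS 24h (log2 fold change 5.19 ± 0.48, adjusted p = 8.4e-10). Ptges, which makes prostaglandin E2, read 0.515, 0.955 and 0.878 in Unstim. and 65, 48.1 and 29.9 in LPS 24h (log2 fold change 5.92 ± 0.47, adjusted p = 2.5e-11). The constitutive Ptgs1 (COX-1) read 42.5, 39.5 and 25.1 in Unstim. and 2.43, 0.715 and 0.287 in LPS 24h (log2 fold change -5.02 ± 0.51, adjusted p = 5.2e-09). Hpgd (ENSMUSG00000031613.8, GRCm38 chromosome 8, 56294585 to 56321043, + strand), the enzyme that inactivates prostaglandins, read 22.9, 21.5 and 34 in Unstim. and 0 in all 3 in LPS 24h, at least 85.3-fold lower (adjusted p = 9.9e-10). The third lower gene, Hpgds, encodes a prostaglandin D synthase (log2 fold change -1.53 ± 0.31, adjusted p = 4.2e-04). The 3 higher and 3 lower genes were each without overlap between the groups. Synthesis genes thus stood on both sides, with Ptgs1 and Hpgds among the lower ones. Of 24 genes of cholesterol synthesis and uptake none was higher and 1 (4.17%, against 6.98% of all genes tested) was lower, Stard4, a sterol carrier, with 19.9, 26.9 and 18.9 in Unstim. and 8.52, 3.04 and 8.69 in LPS 24h (log2 fold change -1.70 ± 0.43, adjusted p = 0.0054), a call lost within the single pool (adjusted p = 0.11). Of 12 efflux and oxysterol genes 3 were higher and 4 were lower (25% and 33.33%, against 9.25% and 6.98% of all genes tested). Nr1h3, the oxysterol receptor LXR-alpha, read 12.6, 13.5 and 12.7 in Unstim. and 43.5, 52.3 and 33.5 in LPS 24h (log2 fold change 1.74 ± 0.33, adjusted p = 2.4e-04). Its target Mylip read 548, 671 and 364 in Unstim. and 167, 188 and 205 in LPS 24h (log2 fold change -1.50 ± 0.28, adjusted p = 1.5e-04). Within the single pool the adjusted p of Mylip was 0.059. Lpl (lipoprotein lipase) had the largest loss in normalized CPM of any gene, from 6571 ± 993 to 921 ± 145 (log2 fold change -2.83 ± 0.31, adjusted p = 3.2e-08), followed by Apoe, from 5812 ± 1009 to 1677 ± 440.1 (log2 fold change -1.79 ± 0.33, adjusted p = 1.5e-04).

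Many genes of resident and alternatively activated macrophages were lower. Of 22, 12 were lower (54.55%, against 6.98% of all genes tested) and 1 was higher (4.545%, against 9.25%). The median log2 fold change was -1.87 (-1.45 with the 3 genes at the floor at their bound). Arg1, also used as a marker of alternative activation, was counted in the arginine list and not here. It went the other way, with a log2 fold change of 11.30 ± 0.71. Mrc1, the mannose receptor CD206, read 503, 385 and 503 in Unstim. and 15.1, 31.5 and 57.8 in LPS 24h (log2 fold change -3.73 ± 0.43, adjusted p = 5.9e-08). Igf1, a growth factor, fell from 1699 ± 340.4 to 273 ± 44.6 (log2 fold change -2.64 ± 0.28, adjusted p = 1.3e-08), and the selenium carrier Selenop from 1844 ± 85.6 to 233 ± 73.1 (log2 fold change -2.99 ± 0.32, adjusted p = 2.2e-08). Trem2, a lipid receptor, read 296, 299 and 336 in Unstim. and 71.6, 73.1 and 39.7 in LPS 24h (log2 fold change -2.34 ± 0.32, adjusted p = 1.3e-06). The chitinase-like Chil3 read 30.5, 42.9 and 36.4 in Unstim. and 6.33, 5.45 and 2.29 in LPS 24h (log2 fold change -2.97 ± 0.46, adjusted p = 1.1e-05). Gpr34, a receptor for lysophosphatidylserine, read 5.54, 6.01 and 6.68 in Unstim. and 0 in all 3 in LPS 24h, at least 19.8-fold lower (adjusted p = 1.0e-05). The complement receptor Vsig4 read 1.87, 3.15 and 2 in Unstim. and 0 in all 3 in LPS 24h, at least 7.63-fold lower (adjusted p = 0.0029). None of these genes had an LPS 24h culture within the Unstim. range. The single higher member was the platelet chemokine Pf4, with 125, 115 and 148 in Unstim. and 638, 296 and 181 in LPS 24h (log2 fold change 1.52 ± 0.36, adjusted p = 0.0028), a call lost without LPS 24h replicate 1 (log2 fold change 0.87, adjusted p = 0.083) and within the single pool (adjusted p = 0.49).

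Other genes with the deepest falls also went from a few normalized CPM to no reads. Gprc5c, an orphan receptor, read 9.92, 10.8 and 9.27 in Unstim. and 0 in all 3 in LPS 24h, at least 32.6-fold lower. Dkk2, a Wnt antagonist, read 12.2, 7.16 and 6.83 in Unstim. and 0 in all 3 in LPS 24h, at least 28.4-fold lower. Cd28, Chp2, Siglech, Ckap2, Tpbgl, Clec4b1, Kcnj9 and Galnt9 likewise had no reads in LPS 24h, with bounds from 9.26-fold (Galnt9) to 19.2-fold (Cd28). Cd28 and Siglech are best known from T cells and plasmacytoid dendritic cells. Of the markers of those cells, the T cell gene Cd3e was at 0 in all 6 libraries. The 8 dendritic markers, Siglech among them, summed to at most 5.85 normalized CPM. Siglech itself, at 2.0, 4.1 and 4.6 in Unstim., made up most of that sum there. Which cells gave the reads of Cd28 and Siglech was not tested. The calls of Kcnj9 and Galnt9 were lost with pool as a term (adjusted p = 0.096 and 0.12), and that of Galnt9 within the single pool (adjusted p = 0.058).

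Lysosomal genes changed in part. Of 41 hydrolases and pump subunits 4 were higher and 8 were lower, and the median was -0.08. These are 9.76% and 19.5%, against 9.25% and 6.98% of all genes tested, so the higher share was near that of all genes. Atp6v0d2, a proton pump subunit of macrophages and osteoclasts, read 413, 443 and 1144 in Unstim. and 26.8, 26.5 and 34.8 in LPS 24h (log2 fold change -4.50 ± 0.41, adjusted p = 6.4e-10). Lipa, which frees cholesterol from lipoproteins, fell from 3739 ± 846 to 1151 ± 70.4 (log2 fold change -1.70 ± 0.31, adjusted p = 1.3e-04). Ctsc, the protease that activates granule enzymes, read 177, 124 and 106 in Unstim. and 506, 516 and 370.1 in LPS 24h (log2 fold change 1.77 ± 0.28, adjusted p = 1.9e-05). Without 1 culture the lower members ranged from 4 to 7 (4 without LPS 24h replicate 3, Unstim. replicate 1 or Unstim. replicate 3) and the higher ones from 2 (without Unstim. replicate 3) to 6.

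A subset of cell cycle genes was lower. Of 48, 12 were lower and 2 were higher, and the median log2 fold change was -1.18 (-1.12 with the 6 genes at the floor at their bound), with most levels at a few normalized CPM. These are 25% and 4.17%, against 6.98% and 9.25% of all genes tested. Top2a, a topoisomerase of dividing cells, read 69.3, 27.4 and 35.2 in Unstim. and 4.87, 4.56 and 6.5 in LPS 24h (log2 fold change -3.05 ± 0.45, adjusted p = 4.6e-06). Cenpf, a centromere protein, read 25.6, 17.9 and 21.1 in Unstim. and 0, 0.357 and 0.478 in LPS 24h (log2 fold change -6.14 ± 0.85, adjusted p = 1.9e-06). Ube2c, Nusap1 and Ccna2, all of mitosis or its entry, had no reads in LPS 24h and were at least 15.9-fold, 9.47-fold and 8.75-fold lower. The proliferation marker Mki67 read 18.4, 10.2 and 29.7 in Unstim. and 4.26, 7.78 and 12.8 in LPS 24h (log2 fold change -1.23 ± 0.54, adjusted p = 0.12), and passed the threshold without a filter on low counts (adjusted p = 0.0044). Cdkn1a (p21), an inhibitor of cell cycle kinases, was higher, with 354, 384 and 307 in Unstim. and 2361, 3374 and 5513 in LPS 24h (log2 fold change 3.43 ± 0.40, adjusted p = 8.9e-08). Cyclin E1 (Ccne1), which drives entry into DNA synthesis, read 1.22, 1.91 and 2.49 in Unstim. and 2.07, 13.1 and 16 in LPS 24h (log2 fold change 2.46 ± 0.60, adjusted p = 0.0034). The groups overlapped for Ccne1, whose LPS 24h replicate 1 lay inside the Unstim. range. DESeq2 called 18 of the 48 lower. The E2F letters were in 2 of 37 cell cycle genes with a promoter window (5.41%, against 4.74% of all genes tested with one).

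Adhesion, matrix and survival genes were mixed. Among the adhesion, migration and matrix genes 32.35% were higher and 17.65% lower, against 9.25% and 6.98% of all genes tested. Among the apoptosis and survival genes the shares were 38.46% and 11.54%. Of 34 adhesion, migration and matrix genes 11 were higher and 6 were lower, and within the single pool 6 and 4 were. Timp1, an inhibitor of matrix proteases, read 14.8, 6.11 and 13.2 in Unstim. and 155, 108 and 87.3 in LPS 24h (log2 fold change 3.36 ± 0.36, adjusted p = 2.1e-08). The membrane protease Mmp14 read 51.9, 18.6 and 38.4 in Unstim. and 379.8, 403 and 308 in LPS 24h (log2 fold change 3.32 ± 0.58, adjusted p = 6.5e-05). The integrin Itgal read 8.25, 7.35 and 14.3 in Unstim. and 73.8, 101 and 85.4 in LPS 24h (log2 fold change 3.11 ± 0.37, adjusted p = 1.3e-07). The chemokine receptor Ccr1 read 9.28, 10.6 and 8.92 in Unstim. and 63.2, 76.8 and 57 in LPS 24h (log2 fold change 2.77 ± 0.36, adjusted p = 5.0e-07). The macrophage elastase Mmp12 fell from 835 ± 119 to 204 ± 13.1 (log2 fold change -2.03 ± 0.28, adjusted p = 1.9e-06), and the tetraspanin Cd9 from 120.1 ± 11 to 27.4 ± 12 (log2 fold change -2.13 ± 0.36, adjusted p = 4.8e-05). Of 26 apoptosis and survival genes 10 were higher and 3 were lower. Mlkl, the executor of necroptosis, read 4.44, 7.73 and 10.4 in Unstim. and 65, 68.5 and 78.1 in LPS 24h (log2 fold change 3.22 ± 0.32, adjusted p = 3.0e-09). Cflar, an inhibitor of caspase-8, read 147, 167 and 110.5 in Unstim. and 689.9, 813 and 641 in LPS 24h (log2 fold change 2.34 ± 0.28, adjusted p = 1.9e-07). Without 1 culture the count of higher survival genes ranged from 6 (without LPS 24h replicate 1 or Unstim. replicate 1) to 11 and that of lower ones from 1 to 3 (1 without LPS 24h replicate 1 or 2 or Unstim. replicate 2), and within the single pool they were 5 and 0.

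To see which of these changes belong to the late state, LPS 24h was set beside LPS 3h. Of the genes tested, 1994 (16.8%) were higher and 1838 (15.5%) lower at 24 h than at 3 h. The comparison reuses the LPS 24h libraries, and the LPS 3h cultures also had a change of medium and a rest. LPS 24h and LPS 3h cultures with the same replicate number share a library prefix. No cytokine of 28 was higher at 24 h than at 3 h and 21 were lower. Tnf read 3524, 2012 and 2179 normalized CPM at 3 h, against 42.3 on average at 24 h (log2 difference -5.93 ± 0.42, adjusted p = 4.3e-12). Il12b read 2155, 2549.8 and 3309 at 3 h and averaged 14.3 at 24 h (log2 difference -7.54 ± 0.53, adjusted p = 4.3e-12), and Il6 read 378, 502 and 393 and averaged 3.68 (log2 difference -6.84 ± 0.63, adjusted p = 9.4e-10). Il1b read 6259, 5892 and 4467 at 3 h and averaged 346 at 24 h (log2 difference -4.0 ± 0.34, adjusted p = 1.9e-10). Of 21 chemokines 14 were lower at 24 h and 1, Ccl8, was higher. Of 45 antiviral genes 24 were lower and 2, Bst2 and Ifi44, were higher, the latter a call lost without LPS 24h replicate 3 or LPS 3h replicate 1 or 2. Of 27 feedback inhibitors 20 were lower and 2, Dusp1 and Otulin, were higher, the former a call lost without LPS 3h replicate 3. Of 48 cell cycle genes 16 were lower and 1 was higher. Acod1 was also lower at 24 h than at 3 h, where it read 22837, 28063 and 15643 (log2 difference -2.29 ± 0.47, adjusted p = 3.5e-04).

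A second set was higher at 24 h than at 3 h. Saa3 read 2079, 1146 and 765 at 3 h (log2 difference 4.50 ± 0.43, adjusted p = 2.3e-09) and Arg1 37.2, 9.6 and 4.64 (log2 difference 7.12 ± 0.59, adjusted p = 1.7e-10). Both had a much smaller level at 3 h than at 24 h in every culture. Slpi read 13.3, 9.36 and 1.06 at 3 h (log2 difference 4.04 ± 0.59, adjusted p = 3.0e-06), Marco 12.6, 12.4 and 10.5 (log2 difference 3.36 ± 0.49, adjusted p = 3.4e-06), Fpr1 29, 27.4 and 21.3 (log2 difference 2.32 ± 0.47, adjusted p = 3.2e-04) and Hp 8.38, 13.4 and 6.89 (log2 difference 2.50 ± 0.50, adjusted p = 2.9e-04). All LPS 24h cultures lay above all LPS 3h cultures for these 6 genes. Of the 17 secreted antimicrobial and acute-phase genes as a list, 4 were higher at 24 h and 5 were lower. Of 27 scavenger, Fc and C-type lectin receptors 13 were higher at 24 h and 7 were lower, and Fpr2, among the 13, lost its call without any one of the 6 cultures. Of 23 glycolytic genes 10 were higher and 3 lower, of 26 NRF2 targets 7 and 3, and of 22 class I genes 5 and 1. Over all genes tested 16.8% were higher and 15.5% lower at 24 h than at 3 h. The counts of these lists were not tested against those shares. Slc16a3 read 30.4, 21.6 and 20.9 at 3 h (log2 difference 2.30 ± 0.31, adjusted p = 1.2e-06) and Ldha 157, 129.6 and 140.3 (log2 difference 1.70 ± 0.36, adjusted p = 4.3e-04), but Hk2 was lower at 24 h (log2 difference -1.98 ± 0.28, adjusted p = 1.8e-06). Of the antiviral genes, Bst2 read 35, 22 and 29.1 at 3 h (log2 difference 2.54 ± 0.35, adjusted p = 1.1e-06) and was higher at 24 h. Ccl5 (log2 difference 0.36 ± 0.41, adjusted p = 0.53) and Nos2 (log2 difference -0.27 ± 0.47, adjusted p = 0.69) did not pass the threshold between the 2 times.

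**Figure D4:**
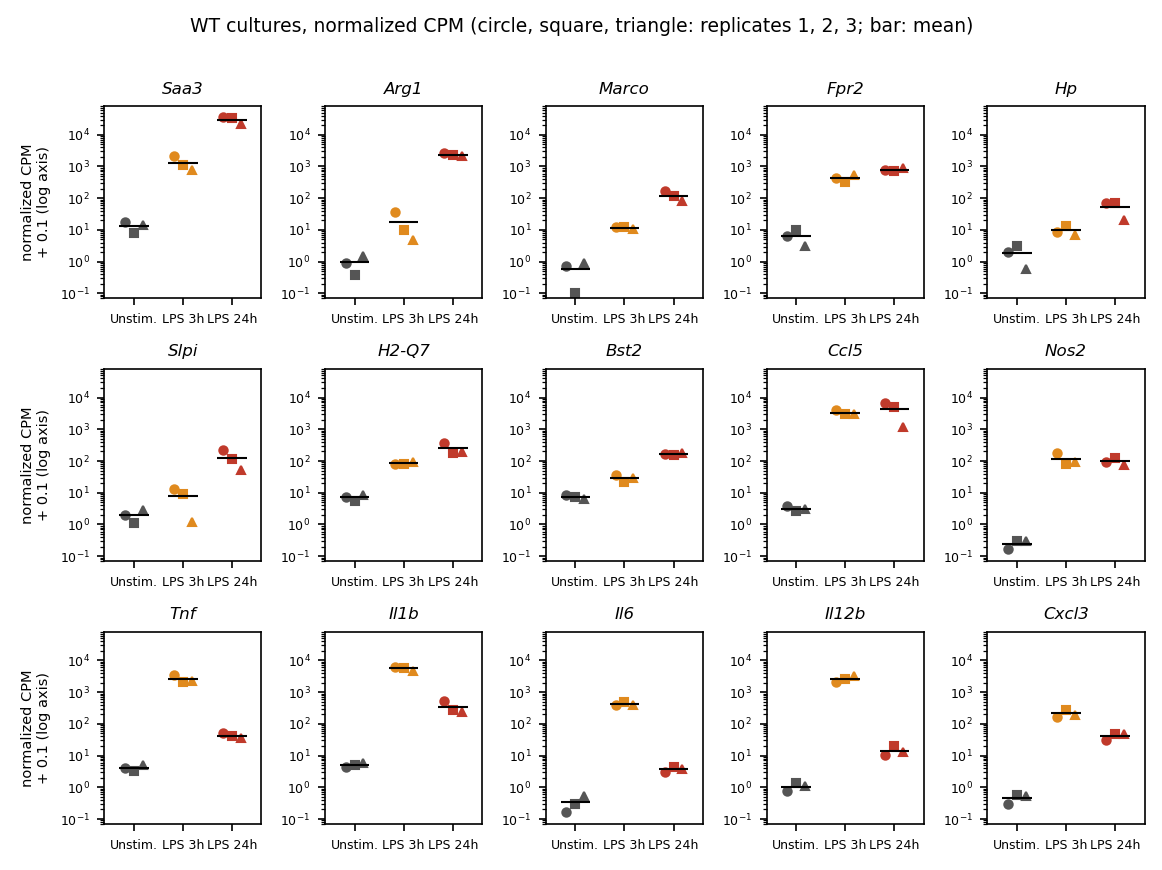
Normalized CPM plus 0.1 (y axis, log scale) of 15 genes in WT cultures of Unstim., LPS 3h and LPS 24h; circles, squares and triangles are replicates 1, 2 and 3, and the bar is the mean. Tnf, Il6 and Il12b stand highest at 3 h, whereas Saa3, Arg1, Marco, Hp and Slpi stand highest at 24 h.

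The test found few genes whose response to a day of LPS differed in Irg1-/- macrophages, and chemokines were prominent among them. The log2 change from Unstim. to LPS 24h differed between Irg1-/- and WT macrophages for 25 genes, 0.21% of those tested, 3 with a more positive and 22 with a more negative change in Irg1-/-. A p that misses the threshold does not show that the other genes responded alike. The targeted gene came first: Acod1 read 7.79, 11.9 and 9.64 in Irg1-/- Unstim. and 11.5, 8.2 and 6.54 in Irg1-/- LPS 24h, against the WT values given above (difference of log2 changes -9.22 ± 0.75, adjusted p = 2.4e-09). The 25 held 7 chemokines: Ccl12, Cxcl11, Cxcl10, Ccl2, Ccl7, Cxcl2 and Ccl4. Ccl12 changed by 8.35 in WT and by 3.95 in Irg1-/- (difference -4.41 ± 0.62, adjusted p = 3.4e-04), and Cxcl10 by 5.65 and 2.07 (difference -3.58 ± 0.51, adjusted p = 3.4e-04). Among antiviral genes Rsad2 changed by 6.76 and 3.90 (difference -2.86 ± 0.49, adjusted p = 0.0038), and Isg15 by 7.38 and 4.74 (difference -2.64 ± 0.49, adjusted p = 0.0096). All Irg1-/- LPS 24h libraries carry 1 pool prefix that only 1 WT LPS 24h library has, so differences between genotypes and between pools cannot be fully told apart. Without Unstim. replicate 1 of WT the count was 7, without LPS 24h replicate 1 of WT it was 45, and without Irg1-/- LPS 24h replicate 2 or 3 it was 14 or 12.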

How the data were processed

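RNA was measured by 3′-end sequencing with barcoded oligo-dT primers and 12 PCR cycles in 24 BMDM libraries (8 groups of 3 cultures). The authors aligned reads with STAR to mm10, and the deposited table holds whole-number counts per gene for 22165 genes. The counting program, annotation and strand setting are not given in the sources used here. Reads on no gene, ambiguous reads and reads with several positions (17.1% to 20.4% of the 6 compared columns) are summary lines of the table and entered no library size or test. Genes were named and placed with GENCODE M21 (21822 named).

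Counts were filtered with filterByExpr, scaled by TMM and fitted over all 24 libraries with 1 mean per group (edgeR 4.0.16, R 4.3.3). Glm quasi-likelihood tests gave p-values, adjusted by the Benjamini-Hochberg method at 0.05. ± after a log2 fold change is its standard error (the log2 fold change over the square root of F), and ± after a level is the SD (n = 3). Levels are normalized CPM, which depend on transcript length little in 3′-end libraries but are compared here only within a gene. A gene with at most 3 reads in every library of a group was given a bound from a floor of 3 reads per library. Floors cover counting error only, since PCR reads without molecular identifiers are not independent molecules. Replicates differed by far more than sampling noise (chi-square per degree of freedom 27.8 to 145 for pairs of WT Unstim. or LPS 24h libraries).

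The libraries and the 26 gene lists were chosen with earlier results of these data known. Named genes are the 15 that rose most and the 15 that fell most on the log2 scale and the 10 largest gains and losses in normalized CPM (called, not overlapping, at least 10 counts in the higher group), up to 4 members per list with the largest changes at 20 normalized CPM or more, and the genes the study follows; other list members were named after their values were seen. Some list members are counted but not reported here by name. Alternatives were DESeq2 1.42.0, 2 other scalings, 2 other filters, subsets of libraries, pool or replicate number as a term, and leaving out each culture. The fits were tested on simulated data. Figures were drawn with matplotlib.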

Additional observations from a re-analysis of the deposited data

Results flagged for a closer look

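The log2 response to LPS 24h differed between Irg1-/- and WT macrophages, by the test of the difference itself, for 16 genes that are members of a list or named by the rule. In 15 of them the difference was negative. The difference, Irg1-/- minus WT on the log2 scale, was -9.22 for Acod1, the targeted gene. For chemokines it was -4.41 (Ccl12), -4.32 (Cxcl11), -3.58 (Cxcl10), -3.34 (Ccl2), -2.79 (Ccl7), -2.29 (Cxcl2) and -2.21 (Ccl4). The antiviral genes among them gave -2.86 (Rsad2) and -2.64 (Isg15). Ptgs2, the inducible cyclooxygenase, gave -2.84, the MAP kinase phosphatase gene Dusp5 -2.73 (log2 change 1.12 in WT and -1.61 in Irg1-/-) and the cytokine gene Tnfsf15 -2.35. The genes without reads in Unstim. gave -6.71 (Lhx2) and -6.60 (Pnp2), values that depend on the prior count of the fit. Pilrb1, a paired receptor of myeloid cells, was the exception, with a response higher by 6.60 in Irg1-/-.

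Acod1, Ccl12, Cxcl10, Rsad2, Ccl7 and Isg15 were called in every alternative run. The other 10 lost the call in at least 1, and leaving out 1 of 12 cultures at a time ended the call most often for Tnfsf15 and Pilrb1 (10 each), Dusp5 (8), Lhx2 and Ptgs2 (7 each). Library pool and genotype cannot be told apart among the LPS 24h cultures beyond the 1 WT culture in the pool of the Irg1-/- cultures. With 3 cultures a group, no search for single outlying cultures was made.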

How the results depend on the processing

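The counts of genes higher and lower in LPS 24h stayed within 1.5 times of 1099 and 829 in every alternative run: 1239 and 1038 with DESeq2, 1065 and 850 with its size factors, 1064 and 850 with factors computed without the 20 most counted genes, 1190 and 893 without a filter, 1035 and 868 with a minimum mean count of 10, 951 and 695 with the 12 WT libraries, 913 and 815 with the compared groups alone, 1033 and 857 with pool as a term, 919 and 683 within 1 pool, and 803 to 1052 and 599 to 737 without 1 culture. Within 1 pool a lone LPS 24h culture is assumed to vary like the other groups. Replicate numbers did not pair the Unstim. and LPS 24h cultures (correlations of same-numbered deviations -0.067, 0.011 and -0.097), and with the number as a block the counts were 1042 and 850. Between LPS 24h and LPS 3h, where same-numbered cultures share a prefix, the correlations were 0.078, -0.037 and 0.060, and the block gave 1986 higher and 1878 lower genes in place of 1994 and 1838. Of 173 named genes, 26 lost their call in at least 1 alternative, each noted beside its value except Dusp5 and Pilrb1, and the direction turned for 2. Of the list counts, 733 of 832 stayed within 1.5 times of their value. Within 1 pool Mt2 gave -0.19 and Pycard -0.44, and Pycard ranged from -0.051 to 0.35 without 1 culture. Between LPS 24h and LPS 3h, Nos2 ranged from -0.56 to 0.12 and Ccl5 from -0.23 to 0.71 without 1 culture. The 25 genes that differed between genotypes became 89 with DESeq2, 112 without a filter, 13 with the compared groups alone and 7 to 45 without 1 culture. The cause was not tested. Reads without molecular identifiers, 3 cultures a group and genes near the floor of 3 reads limit what can be told.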
